A study of Mus musculus with 6 samples.

Results

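The AP-1 subunits and other immediate-early transcription factors were compared between mouse kidney tubular cells whose Glis2 was stably knocked down and cells that carried a control hairpin. The set holds 10 genes, Fos, Fosb, Fosl1, Fosl2, Jun, Junb, Jund, Atf3, Egr1 and Maff, and takes every array probe annotated to 1 of them. There were 13 such probes for 9 of the genes, among 45281 probes and 19057 genes in all, and Fosl1 was not analysed here. Among the 9 genes, Jun, Fosl2, Fosb and Junb rose in the knockdown cells, by 1.65-fold, 1.41-fold, 1.40-fold and 1.29-fold. These folds are of intensities that include background. Junb kept its call in 15 of 20 processing alternatives, and the rise of Fosl2 rests on probe ILMN_1252481 alone. Egr1 fell by 51.4% in mean intensity. Fos, Jund, Atf3 and Maff were not called.

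AP-1 is a family of dimeric transcription factors built from basic leucine zipper proteins. Fos proteins bind DNA with a Jun partner, whereas Jun proteins can also pair with each other, and the make-up of the dimer sets which sites and genes it acts on. Many of these genes are immediate-early genes, whose transcription follows growth factors, stress or injury without new protein synthesis, through MAP kinases and serum response factor. Egr1 is a zinc finger factor induced by the same signals, and in kidney tubules these genes are known as early markers of ischaemic and toxic injury.

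The samples were immortalized proximal tubular cells, with the strain background given as C56BL/6. The Glis2KD group carried a short hairpin RNA against Glis2, and the Control group one against GFP, with 3 arrays in each. Both groups had been infected with lentivirus and were harvested 7 days later, so neither is an unmodified line. What the loss of Glis2 does and what else the hairpin or the infection may do cannot be told apart in this design. Nothing in the labels tells whether the 3 samples of a group were separate cultures, and p-values then cover no more than the spread among these 6 arrays, possibly a technical one.

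Each value is a linear bead-array intensity that includes background. A background limit of 137, the most frequent intensity plus 3 times the SD estimated below it, was set, and 40.7% to 40.8% of the probes on each array exceeded it. Arrays correlated at r = 0.995 within groups and at 0.980 to 0.982 between them over 45281 probes, which are not independent replicates. The Glis2 probe ILMN_1226316 read 169, 161 and 176 on the Glis2KD arrays, against 278, 234 and 230 on the Control arrays, which separates the groups as labelled. The other Glis2 probe, ILMN_2745305, read 145, 177 and 161 on the Glis2KD arrays, against 216, 212 and 191 on the Control arrays. Their log2 fold changes were -0.55 and -0.36, with limma's adjusted p = 7.16e-05 and 0.00577. With the most frequent intensity subtracted, ILMN_2745305 lost its call (adjusted p = 0.179 by limma). Of the proximal tubule markers, 11 of 19 measured were above background on at least 1 array, among them Pax8, Aqp1 and Dab2, whereas Lrp2, Slc34a1 and Slc22a6 were on none. The 11 include Slc5a12, Cubn, Slc27a2, Slc13a3, Hnf4a and Cdh6, whose group means lay around the limit, from 124 to 142. Summed over the measured proximal tubule markers, intensity was 5303 to 5670 in the Glis2KD group and 16038 to 17978 in the Control group. Of these markers, 4 were called lower, Aqp1, Mme, Cdh16 and Dab2. Such sums of linear intensities follow the brightest genes, and Aqp1 alone averaged 365 in the Glis2KD group and 9760 in the Control group. Summed collecting duct markers were at 17221 to 17926 in the Glis2KD group and 13002 to 13402 in the Control group, with Krt7 and Hsd11b2 called higher of 11 measured and Aqp2 on no array above background. Krt7 alone averaged 16288 in the Glis2KD group and 11889 in the Control group, so this sum mostly reads 1 gene. Podocyte markers summed to 1691 to 1763 in the Glis2KD group and 1317 to 1445 in the Control group. There 2 of 4 were called higher, Podxl and Synpo, and Nphs1 was on no array above background. Summed leukocyte markers were at 1628 to 1787 in the Glis2KD group and 1822 to 1981 in the Control group, with 1 higher and 2 lower of 10, and Ptprc on no array above background. The fibroblast, pericyte and mesangium markers summed to 1434 to 1499 in the Glis2KD group and 1556 to 1596 in the Control group. There 1 of 12 was called higher and 1 lower, with Pdgfra and Pdgfrb on no array above background. The higher one, Col1a2, averaged 135 in the Glis2KD group and 112 in the Control group, above the limit on 1 Glis2KD array only. The lower one, Dcn, averaged 139 in the Glis2KD group and 275 in the Control group. Endothelial markers summed to 1497 to 1559 in the Glis2KD group and 1425 to 1530 in the Control group, with 0 of 12 called by limma and 1 at an unadjusted p under 0.05. Thick ascending limb and distal tubule markers summed to 1931 to 2047 in the Glis2KD group and 2027 to 2220 in the Control group, with 0 of 8 called by limma and 0 at an unadjusted p under 0.05. Pecam1, Cdh5 and Umod were on no array above background. The part of these differences in the results below was not tested, and a change in the share of cells cannot be told apart from a change in RNA per cell.

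The promoters of the 4 genes that rose are shown because each was called higher and because Jun is known to be regulated through an AP-1 site in its own promoter. Each window is from GRCm38.p6 and is written 5′ to 3′ on the strand of the gene. It runs from 250 bases before to 50 bases after a RefSeq start, which for Jun, Junb and Fosl2 is the start of the gene. The Fosb window was set on a start inside the gene, whose first base on the minus strand is 19310118. Capitals mark matches to the motifs searched, on either strand, and no matches overlapped.
Jun, chr4:95052173-95052472, minus strand: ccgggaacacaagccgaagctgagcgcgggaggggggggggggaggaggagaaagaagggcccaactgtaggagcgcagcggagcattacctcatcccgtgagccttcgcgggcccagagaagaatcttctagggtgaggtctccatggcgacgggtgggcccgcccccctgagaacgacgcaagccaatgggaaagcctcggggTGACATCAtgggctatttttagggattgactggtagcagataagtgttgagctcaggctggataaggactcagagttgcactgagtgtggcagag
Junb, chr8:84978699-84978998, minus strand: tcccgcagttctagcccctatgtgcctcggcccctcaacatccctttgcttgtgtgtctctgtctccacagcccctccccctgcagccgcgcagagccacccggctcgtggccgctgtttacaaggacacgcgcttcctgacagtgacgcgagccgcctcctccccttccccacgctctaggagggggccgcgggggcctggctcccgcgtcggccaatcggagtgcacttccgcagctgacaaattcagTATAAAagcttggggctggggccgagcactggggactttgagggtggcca
Fosb, chr7:19309996-19310295, minus strand: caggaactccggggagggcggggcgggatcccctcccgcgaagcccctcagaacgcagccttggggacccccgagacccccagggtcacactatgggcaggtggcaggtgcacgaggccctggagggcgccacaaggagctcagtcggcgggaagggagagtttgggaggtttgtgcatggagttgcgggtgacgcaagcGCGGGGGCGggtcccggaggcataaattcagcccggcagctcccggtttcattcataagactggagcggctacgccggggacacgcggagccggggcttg
Fosl2, chr5:32136222-32136521, plus strand: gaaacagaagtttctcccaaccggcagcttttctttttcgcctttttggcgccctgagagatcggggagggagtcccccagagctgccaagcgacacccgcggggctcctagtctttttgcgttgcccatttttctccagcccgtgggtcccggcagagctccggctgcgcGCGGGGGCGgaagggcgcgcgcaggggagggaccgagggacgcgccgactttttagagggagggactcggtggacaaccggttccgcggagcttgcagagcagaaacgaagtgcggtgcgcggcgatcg

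The motifs searched were the AP-1 site TGACTCA, the CRE TGACGTCA, the variant TGACATCA that is known from the Jun promoter, the Egr site GCGNGGGCG, TATAAA and the CArG box bound by serum response factor. Counted from the start, the Jun window held TGACATCA from base -45 to base -38, a motif found in 3.62% of the 32851 windows of 300 bases in the RefSeq table. The windows of Fosb and Fosl2 each held GCGNGGGCG, at bases -50 to -42 and -79 to -71, a motif found in 5.55% of all windows. For Fosb these bases are counted from the start used for its window and lie inside the gene's RefSeq span. The Junb window held TATAAA, found in 13.6% of all windows, at bases 1 to 6, so not before the RefSeq start. The window of Fos, which was not called, held it at bases -33 to -28. The exact letters of TGACTCA, TGACGTCA and the CArG box, found in 5.2%, 1.79% and 1.63% of all windows, were not in these 4 windows. One of the 3 windows of Maff held both TGACGTCA and GCGNGGGCG, and another held TGACATCA. The windows of Jund and Atf3 held none of these motifs. These matches describe letters only, and binding was not measured.

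**Figure D1:**
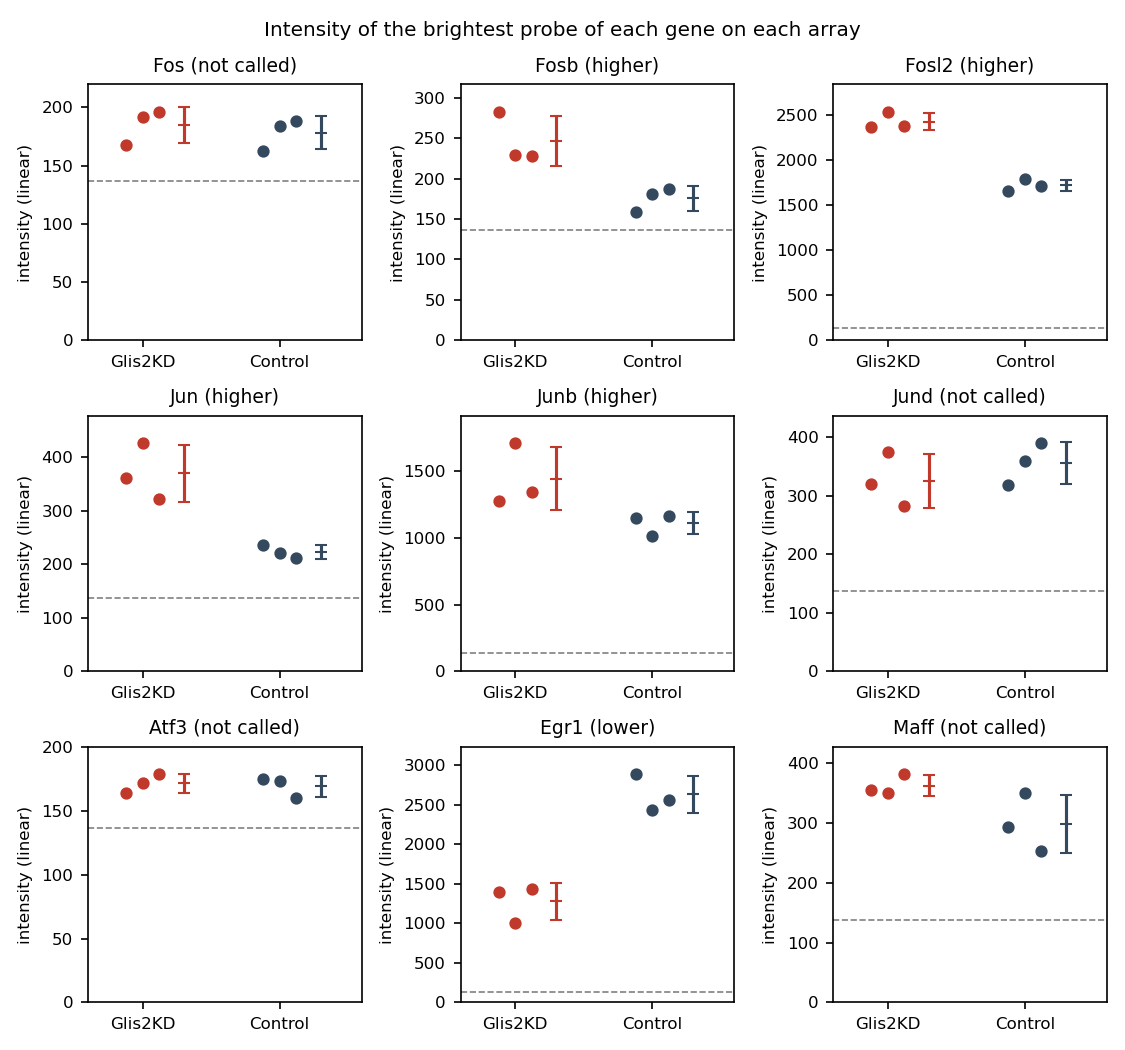
Linear intensity (vertical axes, starting at 0) of the brightest probe of each of the 9 genes on each array, Glis2KD in red and Control in dark blue, with bars for the mean and SD (n = 3 arrays each) and a dashed line at the background limit of 137. The groups are separate for Fosb, Fosl2, Jun, Junb and Egr1, touch for Maff and overlap for Fos, Jund and Atf3.

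Of the Fos subunits, Fosb and Fosl2 rose and Fos did not pass the test. Fosl2, which encodes Fra-2, read 2376, 2538 and 2378 on the Glis2KD arrays, against 1658, 1790 and 1717 on the Control arrays. The groups did not overlap, and the lowest Glis2KD array lay 1.33-fold above the highest Control array. The log2 fold change was 0.50 ± 0.081 (SE), with limma's adjusted p = 7.72e-05. The other probes of Fosl2 gave no such difference. ILMN_2718801 read 126, 125 and 116 in the Glis2KD group and 137, 123 and 125 in the Control group, and ILMN_2768924 read 132, 134 and 105 in the Glis2KD group and 101, 120 and 134 in the Control group. All but 1 of these 12 values were under the background limit, so the rise of Fosl2 rests on ILMN_1252481 alone. Averaged over its 3 probes, the gene had a log2 fold change of 0.16 with limma's adjusted p = 0.131.

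Fosb, a subunit that many cells express only after stimulation, read 282, 229 and 228 on the Glis2KD arrays, against 159, 180 and 188 on the Control arrays. The groups did not overlap, although the Control arrays lay close to the background limit. The log2 fold change was 0.49 ± 0.096 (SE) with limma's adjusted p = 0.000657. With the most frequent intensity of 113 subtracted, the log2 fold change was 1.10, but limma's adjusted p was 0.115, and normexp correction gave 0.93 with an adjusted p = 0.0256.

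Fos, the classical immediate-early subunit, read 167, 192 and 196 on the Glis2KD arrays, against 162, 184 and 188 on the Control arrays. Both groups were above the background limit on every array, and they overlapped almost fully. The fold was 1.04 with a 95% interval of 0.913 to 1.18, and limma's adjusted p = 0.831.

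Among the Jun subunits, Jun and Junb rose and Jund was not called. Jun, the main partner of Fos proteins, read 361, 427 and 323 on the Glis2KD arrays, against 237, 220 and 211 on the Control arrays. All 3 Glis2KD arrays were higher than the Control arrays, and the lowest of them lay 1.36-fold above the highest Control array. The log2 fold change was 0.72 ± 0.096 (SE), the highest among the members, with limma's adjusted p = 5.46e-06. Since these intensities include background, the log2 fold change became 1.22 with the most frequent intensity subtracted (limma's adjusted p = 0.0356) and 1.11 after normexp correction (adjusted p = 0.00566).

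Junb, a subunit that can restrain as well as replace Jun, read 1277, 1709 and 1343 in the Glis2KD group and 1146, 1014 and 1165 in the Control group. The groups did not overlap, but 1 Glis2KD array, replicate 2, stood above the others. The log2 fold change was 0.37 ± 0.10 (SE) with limma's adjusted p = 0.0113. Without Glis2KD replicate 2 it was 0.24 with limma's adjusted p = 0.118, and without Control replicate 2 it was 0.31 with an adjusted p = 0.0778. The call was also lost with the most frequent intensity subtracted (adjusted p = 0.281 by limma), after normexp correction (0.167) and with the mean of both probes (0.252). The other Junb probe, ILMN_1254833, read 112, 128 and 139 in the Glis2KD group and 120, 121 and 147 in the Control group, around the background limit.

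Jund, the subunit that is generally expressed without stimulation, read 321, 375 and 283 in the Glis2KD group and 319, 360 and 391 in the Control group. The groups overlapped, with a fold of 0.911, a 95% interval of 0.788 to 1.05 and limma's adjusted p = 0.523.

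Atf3, a stress-induced factor that can pair with Jun proteins, read 164, 172 and 179 on the Glis2KD arrays, against 175, 174 and 160 on the Control arrays. The values were close to the background limit in both groups and overlapped. The fold was 1.01 with a 95% interval of 0.900 to 1.14 and limma's adjusted p = 0.945. Maff, a small Maf protein that lacks a transactivation domain, read 354, 349.7 and 382 on the Glis2KD arrays, against 293, 349.6 and 254 on the Control arrays. The groups were separated only by the gap between 349.7 and 349.6, and the log2 fold change of 0.29 ± 0.099 (SE) had limma's adjusted p = 0.0536. That p lay under the threshold of 0.05 without Control replicate 2, the high Control array (log2 fold change 0.41, limma's adjusted p = 0.00512). Leaving out any other single array kept limma's adjusted p above the threshold, from 0.0823 to 0.332. The highest of these, without Control replicate 3, came with a log2 fold change of 0.18. The other Maff probe, ILMN_2629354, was under the background limit on all 6 arrays.

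Egr1 differed most among the members and in the other direction. It read 1392, 1009.6 and 1430 on the Glis2KD arrays, against 2887, 2437 and 2558 on the Control arrays. Every Glis2KD array was far below every Control array, and replicate 2 of the knockdown was the lowest. The log2 fold change was -1.05 ± 0.11 (SE) with limma's adjusted p = 1.75e-07, and it stayed called in all 20 alternatives run, between -0.68 and -1.14. Glis2KD replicate 2 was thus the lowest array for Egr1 and the highest for Jun, Junb and Fosl2. Without it, Egr1 had -0.89, Jun 0.62 and Fosl2 0.47 on the log2 scale, each called by limma.

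**Figure D2:**
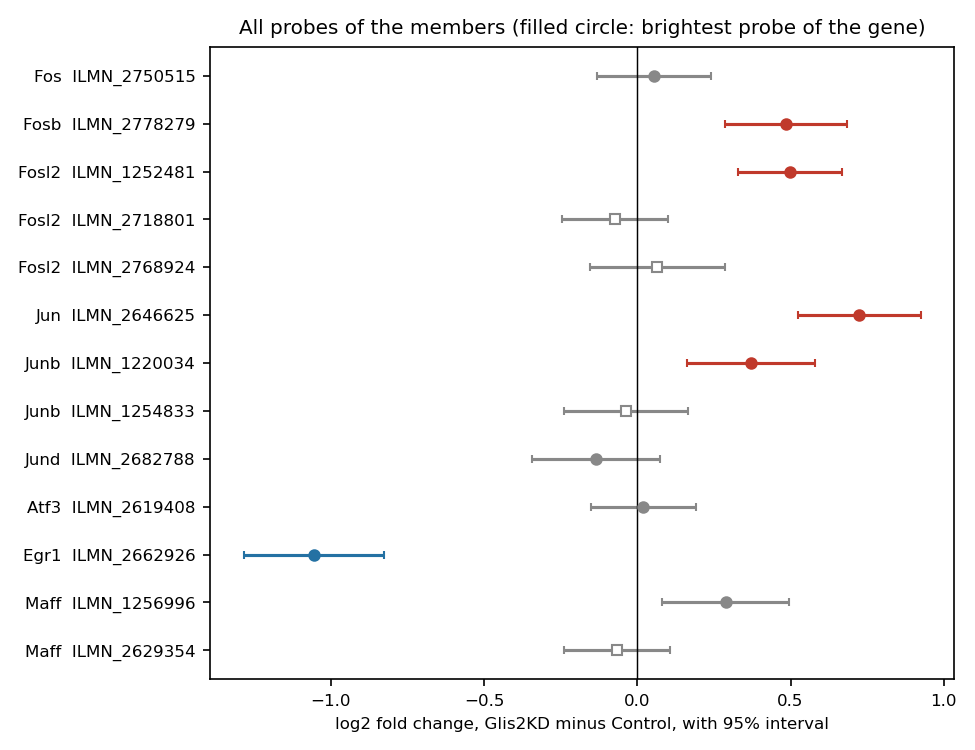
Log2 fold change (horizontal axis, Glis2KD minus Control) of each of the 13 member probes with its 95% interval from limma; filled circles are the brightest probe of a gene, open squares further probes, red called higher, blue called lower and grey not called. Jun, Fosl2, Fosb and Junb lie to the right, Egr1 lies at -1.05, and the 4 further probes all lie near 0.

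By gene, 5 of 9 members were called (55.6%), 4 higher and 1 lower, whereas limma called 22.0% of all genes, 10.9% higher and 11.1% lower. All 9 members were above background on at least 1 array, and among the 11943 genes for which this held, 35.0% were called. The median log2 fold change of the 9 members was 0.29, beside 0.0039 over all genes. The Glis2KD arrays lay wholly above the Control arrays for 5 members and wholly below for 1, and the groups did not overlap in 32.2% of all genes and in 45.0% of those above background. By probe, 5 of 13 were called, against 15.6% of all probes. Of these 13, 11 were above background on at least 1 array, and 29.8% of all probes above background were called.

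The position of the members in the genome was examined next, since the genes around Egr1 were mostly lower. Among all genes above background, 17.3% were called higher and 17.7% lower. Of the 50 nearest genes above background around Egr1 on chromosome 18, 31 were called lower and 1 higher, with a median log2 fold change of -0.36. Relative to those genes, array by array, Egr1 had a log2 fold change of -0.68 with limma's adjusted p = 4.55e-05. Of its neighbours, 8% had a lower value than Egr1 itself.

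Around Fosb on chromosome 7, 15 of the 50 nearest genes were called higher and 1 lower, with a median of 0.12, and relative to them Fosb had 0.31 with limma's adjusted p = 0.0326. Jun on chromosome 4 exceeded all 50 of its nearest genes, whose median was -0.026. Junb on chromosome 8 exceeded 98% of its own, and its log2 fold change relative to them was 0.41. Fosl2 on chromosome 5 had 0.41 relative to its neighbours, whose median was 0.0995. Calls around Fosl2 were 14 higher and 5 lower, and around Maff 15 higher and 8 lower, so with more genes called lower than around Fosb. Around Jun they were 4 higher and 10 lower, and around Junb 3 higher and 11 lower. The part of chromosome position in these changes was not tested further.

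**Figure D3:**
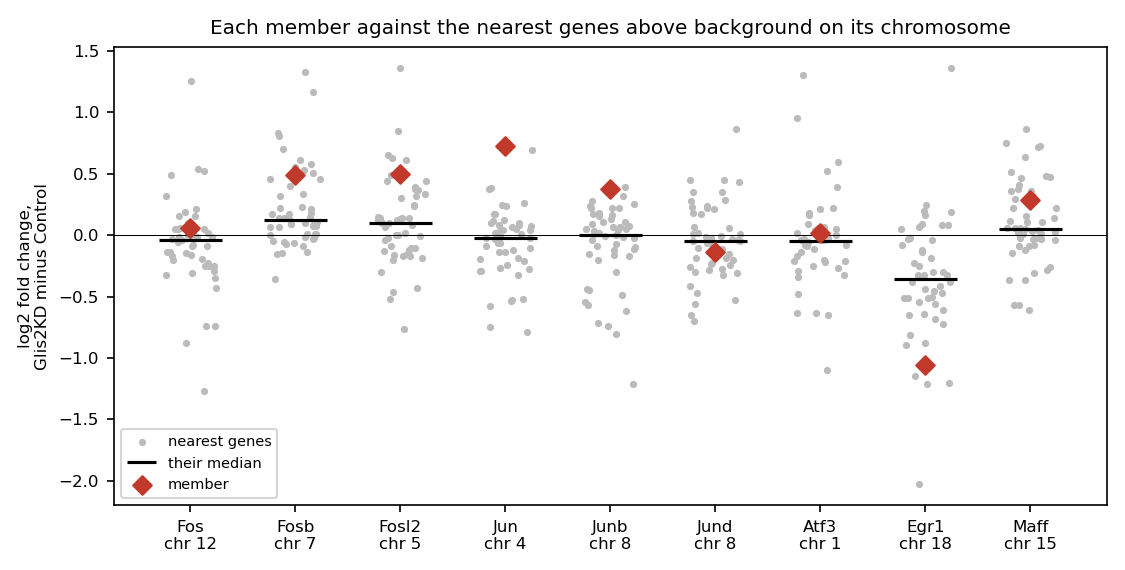
Log2 fold change (vertical axis, Glis2KD minus Control) of each member (red diamond) and of the up to 50 nearest genes above background on its chromosome (grey points), with their median (black line). The neighbours of Egr1 have a median of -0.36 and Egr1 lies below most of them, while Jun lies above all of its own.

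Other immediate-early genes differed in both directions, more of them higher. Of 41 measured, 18 rose, 6 fell and 17 were not called, with 58.5% called beside 22.0% of all genes, and 64.9% of those above background beside 35.0%. Their median log2 fold change was 0.13. Gadd45g, a stress-induced regulator of growth arrest, averaged 6001 ± 299 in the Glis2KD group and 1473 ± 144 in the Control group (SD, n = 3 arrays each). Its log2 fold change was 2.03. The kinase Sgk1, which regulates sodium transport, had 1.56, the matricellular protein Ccn1 1.56 and the EGF receptor ligand Hbegf 1.36. Hbegf lies on chromosome 18, as Egr1 does.

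Egr3, a zinc finger factor of the Egr1 family, averaged 119 ± 13.6 in the Glis2KD group and 254 ± 6.06 in the Control group (SD, n = 3 arrays each). All 3 Glis2KD arrays were under the background limit, so it was at least 1.86-fold lower, and limma gave an adjusted p = 3.99e-09. The further probe of Egr3 did not show this, with means of 146 in the Glis2KD group and 143 in the Control group. The others of that family, Egr2 and Egr4, had log2 fold changes of 0.18 and -0.017, and were not called.

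Gadd45a, a p53-responsive relative of Gadd45g, averaged 1949 ± 193 in the Glis2KD group and 3698 ± 443 in the Control group. The cytokine signalling inhibitor Socs3 had a log2 fold change of -0.68 and the transcription factor Klf4 one of -0.56. The call of Klf4 was lost with the most frequent intensity subtracted (adjusted p = 0.0726 by limma), and its other 2 probes were not called.

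Among other basic leucine zipper factors and partners of AP-1, the calls were mostly lower. Of 24 measured, 1 rose, 7 fell and 16 were not called, with a median log2 fold change of -0.071. The called share was 33.3%, beside 22.0% of all genes, and 40% above background, beside 35.0%. Cebpb, a factor of acute-phase and inflammatory genes, averaged 1622 ± 32.8 in the Glis2KD group and 5713 ± 689 in the Control group, a log2 fold change of -1.81. Its relative Cebpd had -0.52, the stress factor Atf5 -0.90 and Atf2, a partner of Jun at CRE sites, -0.60. Of the further probes of Atf2, 1 was called in the other direction at 0.29. Atf7, a close relative of Atf2, rose by 0.35, and this call was lost without Control replicate 2 or Glis2KD replicate 3 (limma's adjusted p = 0.0539 and 0.0767), with the most frequent intensity subtracted (0.171) and after normexp correction (0.102). With the most frequent intensity subtracted, Atf5 had limma's adjusted p = 0.0698, and 3 genes of the list were called in place of 8.

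Genes that report or limit ERK signalling, the kinase route to Fos and Egr1, included 6 that rose and 2 that fell of 17 measured, with a median of -0.016. The called share was 47.1%, beside 22.0% of all genes, and 50% above background, beside 35.0%. Phlda1 averaged 6391 ± 139 in the Glis2KD group and 3133 ± 399 in the Control group. The phosphatases Dusp5 and Dusp14 had log2 fold changes of 1.08 and 0.81, and the ephrin receptor Epha2 had 0.60. Dusp14 lost its call with the most frequent intensity subtracted (adjusted p = 0.0563 by limma). Dusp4, another MAP kinase phosphatase, had -0.56, and its further probes were lower as well. The ETS factor Etv5 had -0.44, a call lost with the most frequent intensity subtracted (adjusted p = 0.170 by limma) and after normexp correction (0.0686). Phlda1, Ier3 and Ccnd1 of this list also stand in another of the lists.

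Of 23 measured genes of the MAP kinase cascades and serum response factor with its partners, 4 rose and 5 fell, with a median of -0.077. The called share was 39.1%, beside 22.0% of all genes, and 45% above background, beside 35.0%. Mapk11, the beta isoform of p38, averaged 1591 ± 76.9 in the Glis2KD group and 586 ± 55.3 in the Control group, a log2 fold change of 1.44. Map3k1, which acts upstream of JNK, had -0.91, the kinase Araf -0.90, Rps6ka3 -0.45 and the SRF partner Elk4 -0.44. The call of Araf was lost with the most frequent intensity subtracted (adjusted p = 0.0545 by limma). Serum response factor itself, Srf, rose by 0.34, and the kinases Map2k3 and Map2k2 by 0.35 and 0.32. These 3 rises were lost with the most frequent intensity subtracted and after normexp correction (limma's adjusted p between 0.0778 and 0.201). Srf was also lost without Control replicate 2, Control replicate 3 or Glis2KD replicate 1, where limma's adjusted p ran from 0.0590 to 0.0749. Map2k2 was lost without Control replicate 3 or Glis2KD replicate 3 (0.0817 and 0.0932).

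Genes known as AP-1 targets divided evenly. Of 32 measured, 8 rose, 8 fell and 16 were not called, with a median of -0.0086. These calls make up 50% of the list, beside 22.0% of all genes, and 64% of its genes above background, beside 35.0%. The collagenase Mmp13 averaged 242 ± 24.1 in the Glis2KD group and 3334 ± 604 in the Control group, and the stromelysin Mmp10 averaged 207 ± 7.91 in the Glis2KD group and 1185 ± 131 in the Control group. Of the further probes of Mmp13, 1 fell and 1 was not called. The growth factor Vegfa and the urokinase Plau had log2 fold changes of -1.36 and -1.31. Metallothionein Mt1, Hbegf, the membrane protease Mmp14 and the plasminogen activator Plat had 1.26, 1.36, 1.19 and 1.09.

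**Figure D4:**
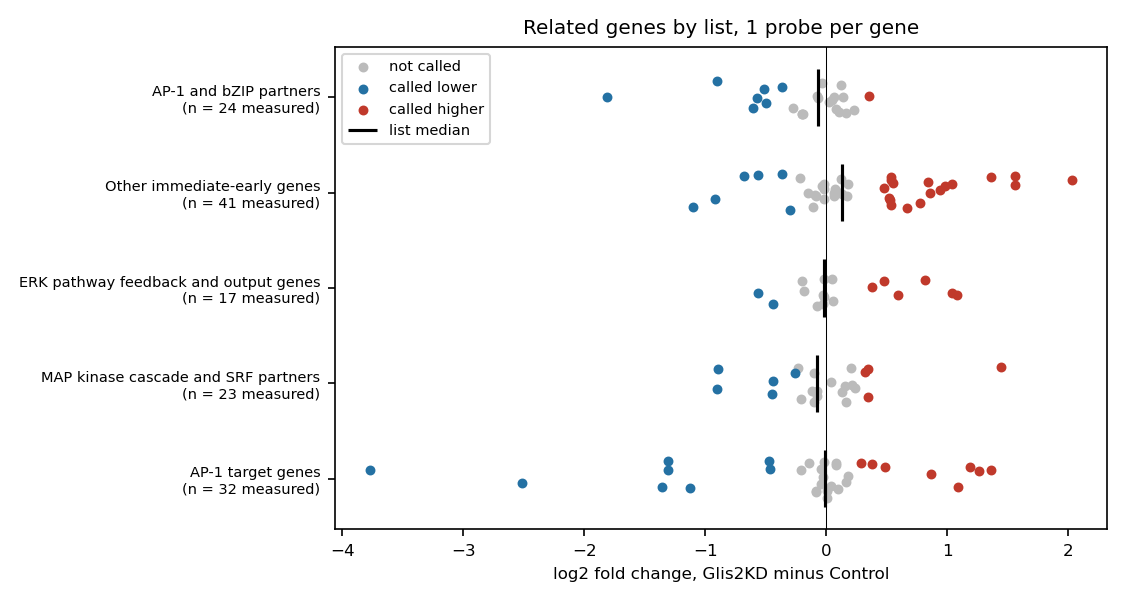
Log2 fold change (horizontal axis, Glis2KD minus Control) of each measured gene of the 5 lists, 1 probe per gene, in red where called higher, blue where called lower and grey where not called, with the list median in black. The immediate-early list has 18 red and 6 blue points, and the AP-1 target list 8 of each.

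The genes whose intensities followed those of Jun and Egr1 most closely over the 6 arrays were picked out as a description. For Jun they were the vesicle tethering factor Uso1 (r = 0.996), the ubiquitin ligase Rnf19b (0.995) and the microtubule linker Clip2 (0.994), among 11934 genes above background. Uso1 averaged 1569 ± 138 in the Glis2KD group and 1003 ± 47.9 in the Control group. For Egr1 they were Sh3rf2 (r = 0.997), the procollagen proteinase enhancer Pcolce (0.995) and the muskelin gene Mkln1 (0.995), and Pcolce averaged 458 ± 66.5 in the Glis2KD group and 1058 ± 135 in the Control group. With 2 separate groups of 3 arrays such values are common, since 351 genes correlated with Jun and 416 with Egr1 above r = 0.95.

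**Figure D5:**
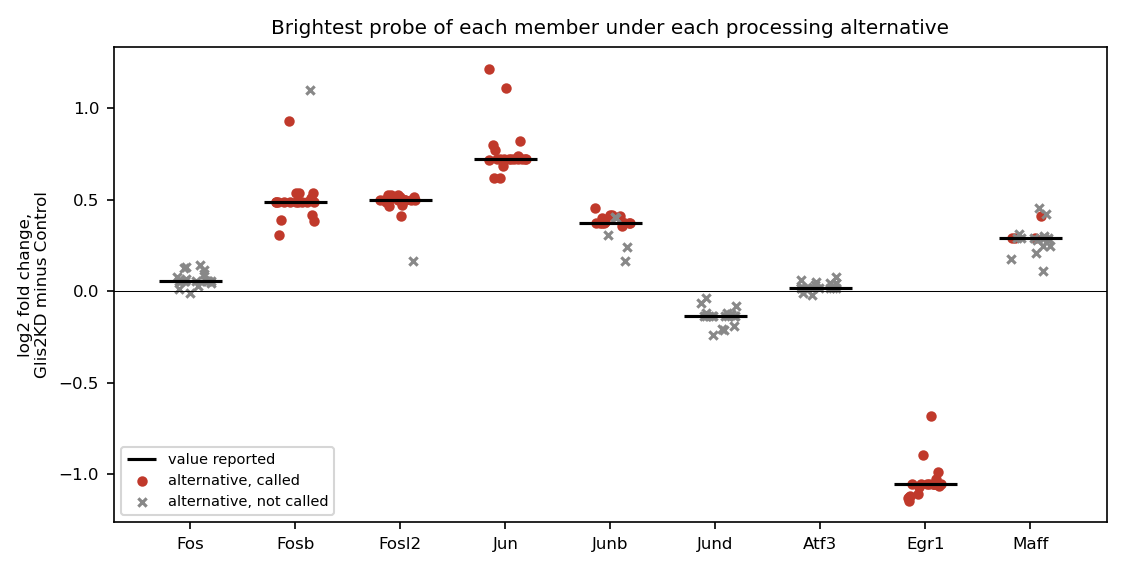
Log2 fold change (vertical axis, Glis2KD minus Control) of the brightest probe of each member as reported (black line) and under each of 20 processing alternatives, red circles where limma called it and grey crosses where not. Jun and Egr1 are red throughout, Fosb and Fosl2 have 1 cross each, Junb has 5, and Maff is red in 4.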

How the data were processed

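Total RNA of 6 samples was hybridised with Cy3 label by a standard Illumina protocol, per the labels. The deposited values are linear intensities, 1 for each probe on each array. From the values, the authors had brought the 6 arrays to 1 distribution, with log2 medians within 0.00029, and had not subtracted background (lowest intensity 85.4). Their software, normalization method and build are each not given in the sources used here. Scanner output was not used here. Precision is limited by the number of arrays.

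Values were floored at 16, which altered none, and log2-transformed. The contrast of Glis2KD minus Control was fitted with limma 3.58.1 in R 4.3.3 (lmFit, eBayes) on all 45281 probes, with Benjamini-Hochberg adjustment over them and a threshold of 0.05. The fit was tested on simulated data. A gene stands by its brightest probe on average. Of the probes, 34885 had 1 gene symbol, 18 several and 10378 none. RefSeq GRCm38.p6 tables, matched for 34807 probes by Entrez identifier, gave names, neighbouring genes and promoters. Named were all members and, of each list, up to 4 called genes in each direction by smallest p. For Jun and Egr1, the called members with the highest and lowest fold change, the 3 genes most alike were named too. Members, lists, tests and alternatives were chosen with earlier results of these data known. Some genes of the lists were not analysed here. The alternatives were the replicate number as a block, median centring or quantile normalization of the arrays, an offset of 50, a floor of 32 and 2 background corrections. Others were 2 filters on dim probes, trend with robust eBayes, array weights, leaving out each array, 1 probe per gene, the mean of a gene's probes, and values relative to neighbouring genes.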

Additional observations from a re-analysis of the deposited data

How the results depend on the processing

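Of 20 alternatives, Jun and Egr1 stayed called in all, Fosb and Fosl2 in 19 each and Junb in 15. Some of these settings could change little. The floor of 32 altered no value, since the lowest intensity was 85.4. The arrays already shared a common distribution before median centring or quantile normalization. Jun, Egr1 and Fosb each had 1 probe, so the mean of a gene's probes left their values unchanged. With the most frequent intensity subtracted, 3 member probes and 3 member genes were called in place of 5, and limma called 3438 probes and 2123 genes, against 7065 and 4195. That setting called 3 of the basic leucine zipper genes and 4 of the MAP kinase genes, in place of 8 and 9. After normexp correction the counts were 4510 probes, 2622 genes, 4 basic leucine zipper genes and 5 MAP kinase genes. With the mean of a gene's probes 3 member genes were called. Fosl2 and Junb lost their calls there, and their further probes lie near background. Without 1 array, 4 or 5 member genes were called, not always the same ones. Without Control replicate 2, Junb lost its call and Maff gained one. Maff was called by limma above the background limit on 3 arrays, above the median of all probes, without Control replicate 2 and with 1 probe per gene (adjusted p from 0.00512 to 0.0441). In the other 16 alternatives Maff was not called. Of 34 named list genes, 25 kept their call in every alternative run for them. For the losses of calls the cause was not tested.

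With the replicate number as a block, 5 member genes were called, as without it, and 4061 genes and 6790 probes in all. Same-numbered arrays did not deviate together in these values (r from -0.062 to -0.034 over 23512 probes above background). With few arrays per group, already brought to a common distribution, this cannot tell whether equal numbers mark a shared culture or batch. Low signal over background limits what can be seen of Fos and Atf3, whose intensities lay close to the limit of 137 in both groups, and of Fosb, where the Control arrays did.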
